A study of Drosophila melanogaster with 4 samples.

Results

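The nuclear genes for subunits of the respiratory chain and of ATP synthase were followed in RNA that co-precipitated with LARK, an RNA-binding protein of Drosophila melanogaster. Members were the genes whose single annotated symbol starts with ND- (complex I), UQCR- (complex III), COX (complex IV) or ATPsyn (ATP synthase). They numbered 60 of the 10844 genes with 1 symbol on the array: 31 of complex I, 4 of complex III, 11 of complex IV and 14 of ATP synthase. Of these, 46 were main subunits and 14 were paralogues, named after a main subunit with an added L, L1 or L2. Each gene was read by 1 probe set, the brighter one for the 2 genes that had 2.

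All material came from Canton-S wild-type animals at the pharate adult stage, just before the fly leaves its pupal case, and about 1000 hand-dissected brains were lysed per experiment. The first group held 2 LARK IP samples, precipitated from the lysate with an antibody to LARK, and the second held 2 total RNA samples, taken from the same lysates. The sample pairs share everything but the precipitation, and a precipitation with another antibody was not analysed here. Each sample was hybridised to 1 Affymetrix array, and signals were scaled to 1 common level, so a ratio of IP to total RNA compares a transcript's share of the RNA in each sample.

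The respiratory chain sits in the inner mitochondrial membrane. Complex I takes electrons from NADH, complex III passes them to cytochrome c, complex IV hands them to oxygen, and ATP synthase makes ATP with the proton gradient that the other complexes build. Neurons depend on this route for most of their ATP. Most subunits are encoded in the nucleus and a few core ones in mitochondrial DNA, and several fly subunits have a duplicate gene, many of which are known for expression in the testis.

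The 4 arrays had median signals of 2.7 to 2.8, and the background, read from bacterial control probe sets, was 3.43, which 43.1% to 44.5% of probe sets exceeded. Of 7 neuronal marker genes with a probe set, 5 were tested, with a median log2 ratio of 1.26 and a range of -0.47 to 1.44. The median was that of elav, whose total RNA signal in replicate 1 (1.5) was under background. Both elav and nSyb reached the mean signal needed for a test only through their IP arrays. That median thus rests in part on the choice of tested genes. Of the 5, 1 (futsch) was called higher in LARK IP, where 2.69% of all tested probe sets were. Rbp9 was lower in LARK IP in both lysates (-0.17 and -0.77), and nSyb changed sign between them (-0.24 and 2.40). Glial markers such as repo (14.3 and 23.3 in LARK IP, 14.9 and 22.5 in total RNA) were above background, though moody (0.4 and 1.1 in LARK IP, 7.7 and 1.3 in total RNA) and wrapper (2.5 and 0.7 in LARK IP, 5.5 and 5.5 in total RNA) were under it in both IP arrays. Summed over 8 genes, testis markers reached 24.6 and 15.6 in LARK IP and 26.1 and 30.6 in total RNA. Only 1 of the 8 was tested and most of their signals were under background, so these sums do not show testis RNA in the lysates. In a bulk lysate, fewer cells of a type and less RNA per cell cannot be told apart.

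The probe sets of most main subunits were well above background. A test was run on the probe sets in the top 25% of mean log2 signal, and 42 of the 46 main subunits passed that filter, all of them above background on all 4 arrays. The 4 that did not pass were ND-18, ND-B8, ND-SGDH and COX7C. Of the 14 paralogues, 3 passed (ND-20L, ND-B14.5AL and ATPsynbetaL). That left 45 tested members: 25 of 31 in complex I, 3 of 4 in complex III, 6 of 11 in complex IV and 11 of 14 in ATP synthase. The highest signal was that of ATPsynC, the subunit that forms the rotating membrane ring of ATP synthase, at 463.2 and 419.9 in LARK IP and 447.6 and 349.5 in total RNA.

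**Figure D1:**
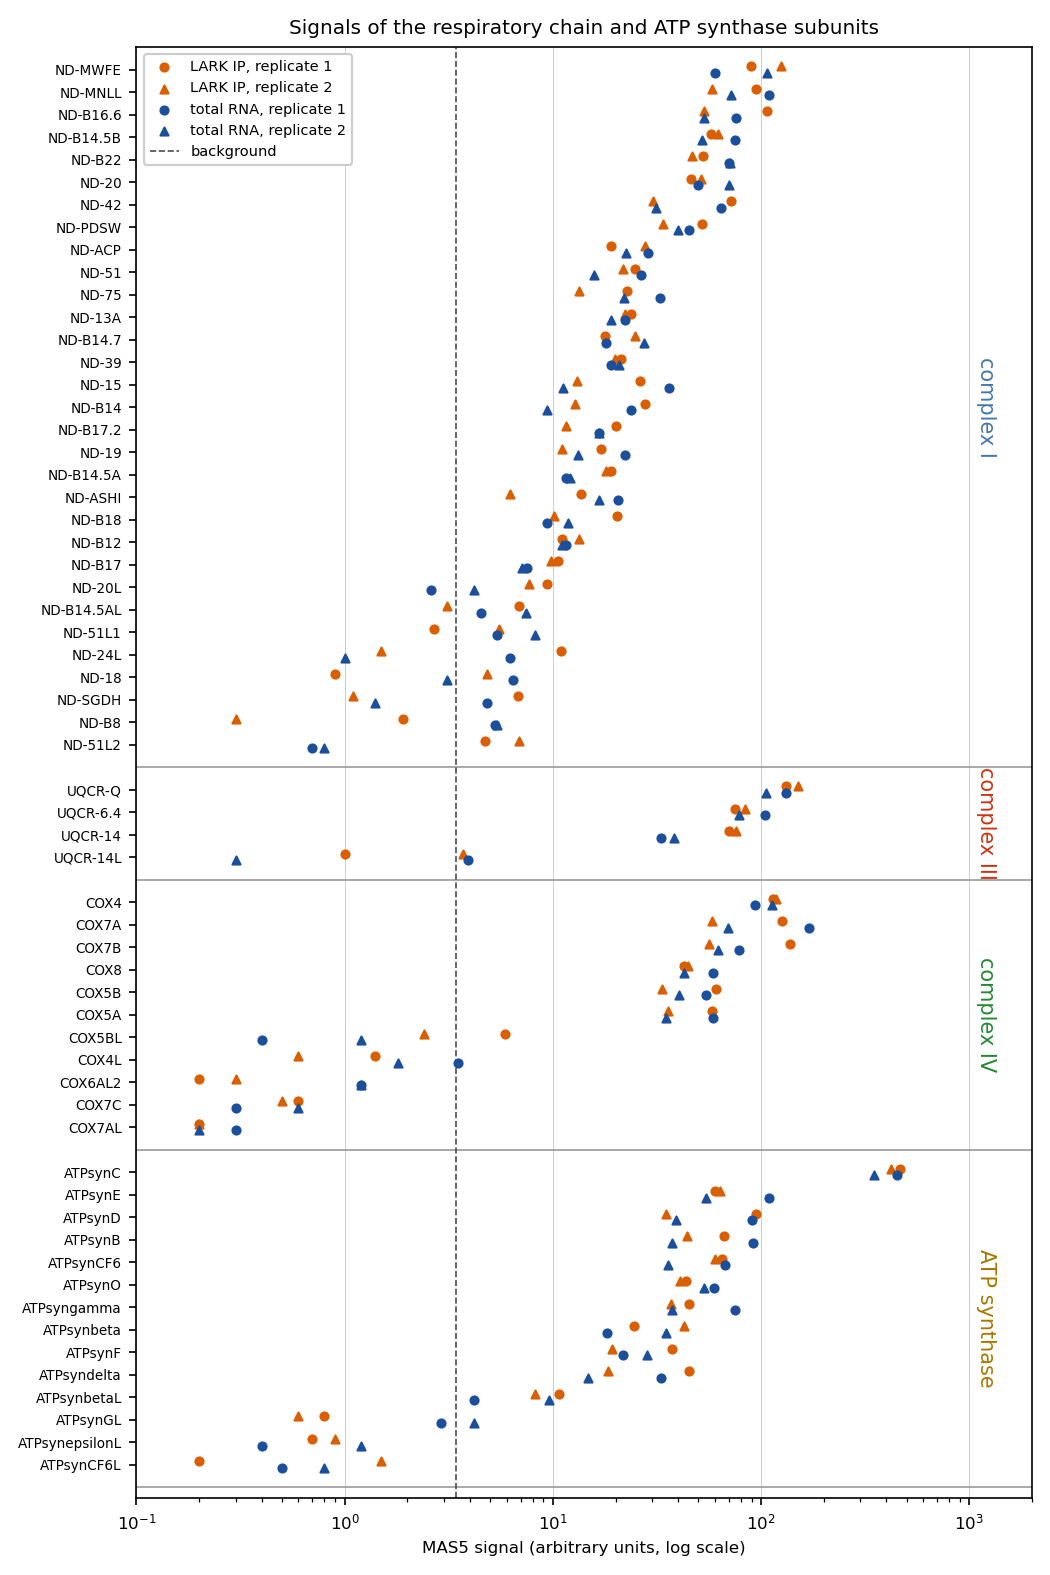
Signal of each of the 60 members on each array (log axis, arbitrary units), grouped by complex and ordered by mean log2 signal; orange points are LARK IP and blue points total RNA, circles replicate 1 and triangles replicate 2, and the dashed line is the background of 3.43. Most main subunits lie well right of the background in both kinds of RNA, while most paralogues lie near or left of it.

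Within each complex the IP arrays and the total RNA arrays had median signals of the same order. In ATP synthase, complex III and complex IV they differed more in replicate 1 than in replicate 2. The tested complex I subunits had median signals of 22.8 and 19.8 in LARK IP and 23.7 and 19.0 in total RNA. For complex IV the medians were 87.5 and 50.2 in LARK IP and 68.5 and 52.4 in total RNA, and for ATP synthase 45.3 and 40.6 in LARK IP and 67.2 and 37.2 in total RNA. The 3 complex III subunits had medians of 74.6 and 83.6 in LARK IP and 104.2 and 78.6 in total RNA. Probe sets differ in how they respond to a transcript, so these medians do not rank the complexes by amount of RNA.

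The first question was whether LARK IP held more or less of these transcripts than the total RNA of its own lysate. No member was called by limma at an adjusted p of 0.05: 0 of 45 were higher in LARK IP, where 2.69% of all 3492 tested probe sets were, and 0 of 45 were lower, against 0.172% of all. At an unadjusted limma p of 0.05, 1 of 45 was higher (UQCR-14) and 1 of 45 lower (ND-ASHI), beside 7.82% and 4.18% of all tested probe sets. Of the alternative settings tried, 2 gave 1 call among the members, higher in LARK IP in both.

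The ratios of the members lay close to 0. Their median log2 ratio was 0.05 in replicate 1 and 0.03 in replicate 2, and 0.01 for the mean of both, beside -0.04 over all tested probe sets. The mean ratio lay between -0.5 and 0.5 for 40 of 45 members (88.9%), against 65.8% of all tested probe sets. Brightness differs between these sets. Among the 708 tested probe sets as bright as the lower quartile of the main subunits or brighter, 70.1% lay in that range, as did 38 of the 42 main subunits (90.5%). The interquartile range of the ratios was 0.44 in the main subunits and 0.61 in those 708 probe sets.

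The replicates seldom set a member apart in a stable direction. Both replicate ratios were above 0 for 11 of 45 members (24.4%, against 27.1% of all tested probe sets) and below 0 for 10 of 45 (22.2%, against 30.7%). The sign differed between replicates for 23 of 45 (51.1%, against 40.8%). Both LARK IP signals exceeded both total RNA signals for 5 members, namely ND-20L, ND-B14.5A, ND-B17, UQCR-14 and COX4 (11.1%, against 15.4%). Both LARK IP signals lay below both total RNA signals for 3, namely ND-B22, ND-ASHI and ATPsynO (6.67%, against 17.4%). The counts of members in each direction were thus at or below the share of all tested probe sets.

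**Figure D2:**
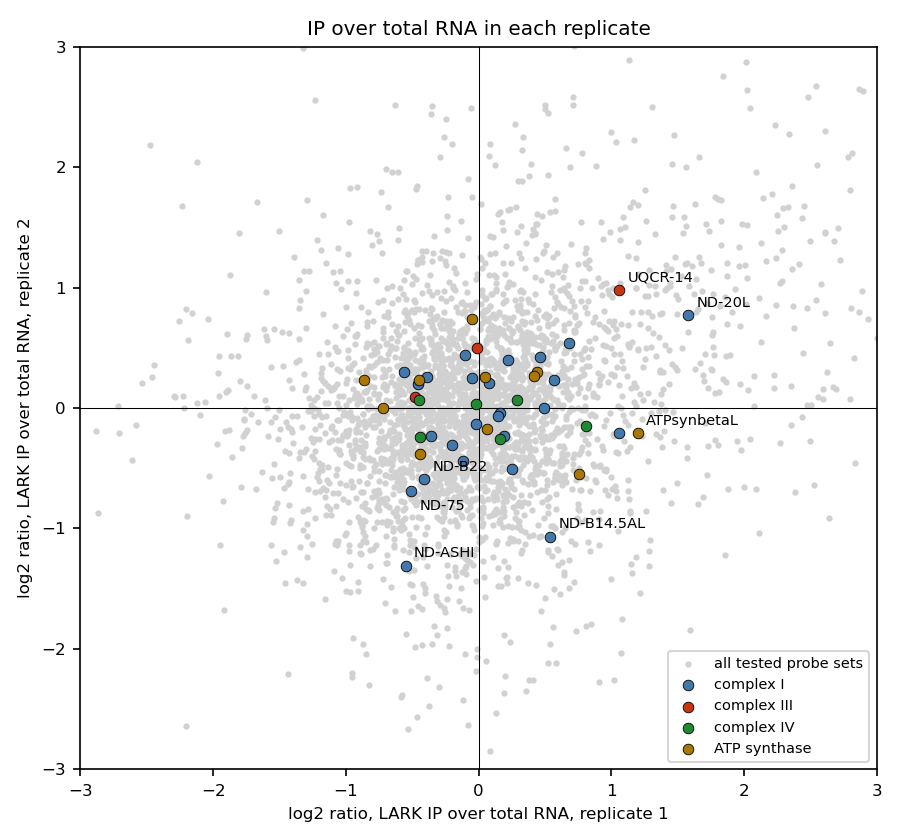
Log2 ratio of LARK IP to total RNA in replicate 1 (horizontal) and replicate 2 (vertical), with tested members coloured by complex and all 3492 tested probe sets in grey; 30 probe sets lie outside the axes, which end at 3 on either side. The members gather around the origin, with UQCR-14 and ND-20L to the upper right and ND-ASHI to the lower left.

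The median standard error of a ratio was 0.26, and the median width of the 95% interval from limma was 1.18. The interval lay wholly between -1 and 1 for 33 of the 45 members, all 33 of them main subunits. The other 12 intervals reached beyond 1 or -1 on 1 side or both, so they do not bound the ratio to a 2-fold change. Since each probe set had 1 residual degree of freedom, these intervals rest largely on the spread borrowed across probe sets.

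The member with the lowest adjusted p was UQCR-14 (CG3560), a small nuclear-encoded subunit of complex III, whose mammalian counterpart takes part in ubiquinone binding. Its signals were 70.3 and 75.9 in LARK IP against 33.2 and 38.2 in total RNA. Both IP arrays lay above both total RNA arrays, by nearly the same factor in each lysate. The log2 ratio was 1.02 ± 0.06 (SD, n = 2), with a 95% interval of 0.50 to 1.54 and an adjusted p of 0.0535 by limma, just short of the threshold. It passed with 4 times the pseudocount (log2 ratio 0.97, adjusted p = 0.0225) and with the filter applied to log2 signals without a pseudocount (adjusted p = 0.0428), and its adjusted p over all alternatives ranged between 0.0225 and 1.0. Its ratio lay between 0.87 and 1.12 in every alternative run.

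The other complex III subunits did not share that ratio. UQCR-Q, another small subunit, had 131.3 and 150.2 in LARK IP and 132.3 and 105.8 in total RNA, with a ratio of 0.25 ± 0.36 (adjusted p = 0.741 by limma). UQCR-6.4, also a small subunit, had 74.6 and 83.6 in LARK IP and 104.2 and 78.6 in total RNA, a ratio of -0.19 ± 0.40 (adjusted p = 0.802). For both, the replicate ratios lay on either side of 0. Whether UQCR-14 differs from them was not tested, since probe sets were fitted singly.

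Complex I, the largest of the complexes, had tested members at both ends of the range. The highest ratio was that of ND-20L, a duplicate of ND-20, the subunit that carries the last iron-sulfur cluster before ubiquinone. ND-20L gave 9.4 and 7.7 in LARK IP and 2.6 and 4.2 in total RNA, with 1 of its total RNA signals under background. It passed the filter on mean signal only through the IP arrays, so its place at the top of the list rests in part on that choice. The groups did not overlap, but the ratio of 1.18 ± 0.58 varied between the lysates and did not pass (adjusted p = 0.448 by limma). ND-20 itself gave 46.0 and 51.2 in LARK IP and 49.9 and 69.9 in total RNA, a ratio of -0.28 ± 0.23 (adjusted p = 0.716).

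Next in complex I came ND-B14.5A and ND-B17, accessory subunits that surround the catalytic core. ND-B14.5A had 19.0 and 17.9 in LARK IP and 11.6 and 12.1 in total RNA, a ratio of 0.61 ± 0.10 (adjusted p = 0.521 by limma). ND-B17 had 10.6 and 9.8 in LARK IP and 7.5 and 7.1 in total RNA, a ratio of 0.44 ± 0.02 (adjusted p = 0.754). Both were higher in LARK IP in 2 of 2 lysates, and neither passed the test.

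At the low end of complex I stood ND-ASHI, ND-75 and ND-B22. ND-ASHI, an accessory subunit of the membrane arm, had 13.7 and 6.2 in LARK IP and 20.5 and 16.6 in total RNA, a ratio of -0.93 ± 0.54 (adjusted p = 0.33 by limma). ND-75, the large iron-sulfur subunit on the NADH side, had 22.8 and 13.3 in LARK IP and 32.8 and 21.9 in total RNA, a ratio of -0.60 ± 0.13 (adjusted p = 0.457). ND-B22, an accessory subunit of the membrane arm, had 52.4 and 46.7 in LARK IP and 69.8 and 70.7 in total RNA, a ratio of -0.50 ± 0.13 (adjusted p = 0.429). All 3 were lower in LARK IP in 2 of 2 lysates, and none passed the test.

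The brightest complex I subunits were ND-MWFE and ND-MNLL, short subunits of the membrane arm. ND-MWFE had 89.4 and 124.8 in LARK IP and 60.1 and 106.5 in total RNA, a ratio of 0.40 ± 0.24 (adjusted p = 0.529 by limma). ND-MNLL had 94.7 and 57.8 in LARK IP and 109.2 and 71.8 in total RNA, a ratio of -0.26 ± 0.07 (adjusted p = 0.716). On average over the arrays, the lysates differed more than IP and total RNA did in both genes. A second, dimmer probe set of ND-MNLL had 75.9 and 20.5 in LARK IP and 60.7 and 36.6 in total RNA, with a ratio of -0.25 ± 0.80.

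ND-51, which binds NADH and the flavin cofactor, had 24.7 and 21.6 in LARK IP and 26.5 and 15.7 in total RNA, a ratio of 0.17 ± 0.38 (adjusted p = 0.891 by limma). The remaining tested members of complex I lay between -0.30 and 0.42. Over the 25 tested members of complex I, the median was -0.02 and the interquartile range 0.50.

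Complex IV, cytochrome c oxidase, had the narrowest spread: its 6 tested members lay between -0.34 and 0.33, and for 6 of 6 the log2 ratio was under 1 in size in both replicates. COX4, a regulatory subunit that faces the matrix, had 114.2 and 118.2 in LARK IP and 93.0 and 112.8 in total RNA, a ratio of 0.18 ± 0.16 (adjusted p = 0.798 by limma). COX7A had 125.4 and 58.1 in LARK IP and 170.0 and 69.0 in total RNA, a ratio of -0.34 ± 0.14 (adjusted p = 0.582). For COX4 both IP arrays lay above both total RNA arrays by a small margin, though its ratio was -0.13 after quantile normalization, while COX7A followed its lysate.

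COX7B was the highest of complex IV, with 137.5 and 56.0 in LARK IP and 78.1 and 62.3 in total RNA, a ratio of 0.33 ± 0.68 (adjusted p = 0.708 by limma), and only the replicate 1 ratio was above 0. COX5A, which binds on the matrix side, had 58.1 and 35.9 in LARK IP and 58.8 and 35.1 in total RNA, a ratio of 0.01 ± 0.03. COX5B, the subunit that holds a zinc ion, had 60.7 and 33.6 in LARK IP and 54.1 and 40.5 in total RNA, a ratio of -0.05 ± 0.30. COX8 had 42.8 and 44.4 in LARK IP and 58.9 and 42.4 in total RNA, a ratio of -0.19 ± 0.37. None of these passed the test, and COX5A had nearly equal IP and total RNA signals in each lysate.

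All 11 tested members of ATP synthase had mean ratios between -0.41 and 0.50. ATPsynC had a ratio of 0.16 ± 0.15 (adjusted p = 0.835 by limma). Its second, dimmer probe set gave 67.5 and 70.5 in LARK IP and 155.0 and 63.9 in total RNA, with ratios of -1.19 in replicate 1 and 0.14 in replicate 2. The probe sets of ATPsynC thus differed in sign in replicate 1, as did those of ND-MNLL.

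In the catalytic head of ATP synthase, ATPsynbeta, which holds the sites where ATP is made, had 24.6 and 42.5 in LARK IP and 18.2 and 35.1 in total RNA, a ratio of 0.34 ± 0.10 (adjusted p = 0.672 by limma). ATPsyngamma, the shaft that turns inside the head, had 45.3 and 37.1 in LARK IP and 74.9 and 37.2 in total RNA, a ratio of -0.36 ± 0.50 (adjusted p = 0.653). ATPsyndelta, at the foot of that shaft, had 45.1 and 18.4 in LARK IP and 33.0 and 14.8 in total RNA, a ratio of 0.37 ± 0.10 (adjusted p = 0.655). ATPsynbeta and ATPsyndelta were higher in LARK IP in 2 of 2 lysates without passing, and ATPsyngamma differed in replicate 1 alone.

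Of the stalk that holds the head in place, ATPsynO had 43.7 and 40.6 in LARK IP and 59.6 and 53.2 in total RNA, a ratio of -0.41 ± 0.04 (adjusted p = 0.534 by limma). ATPsynCF6, another stalk subunit, had 64.9 and 60.3 in LARK IP and 67.2 and 35.7 in total RNA, a ratio of 0.35 ± 0.56 (adjusted p = 0.669). ATPsynE, a small membrane subunit, had 59.9 and 63.6 in LARK IP and 109.2 and 54.3 in total RNA, a ratio of -0.32 ± 0.77 (adjusted p = 0.738). ATPsynO was lower in LARK IP in 2 of 2 lysates without passing, whereas the stalk and membrane partners changed sign between them.

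Set side by side, the complexes had ratios near 0, and the lysates disagreed on their order. The median of complex I was 0.08 in replicate 1 and -0.04 in replicate 2, that of complex III -0.01 and 0.50, that of complex IV 0.07 and -0.06, and that of ATP synthase 0.05 and 0.23. Complex IV minus complex I was -0.01 in replicate 1 and -0.02 in replicate 2. ATP synthase minus complex I was -0.04 and 0.27, complex III minus complex I -0.10 and 0.54, and complex IV minus complex III 0.08 and -0.56. ATP synthase minus complex III was 0.06 and -0.28, and ATP synthase minus complex IV -0.02 and 0.28. For every pair but complex IV minus complex I the sign changed between the lysates. Genes of a complex are not replicates, so no test was made of these differences.

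**Figure D3:**
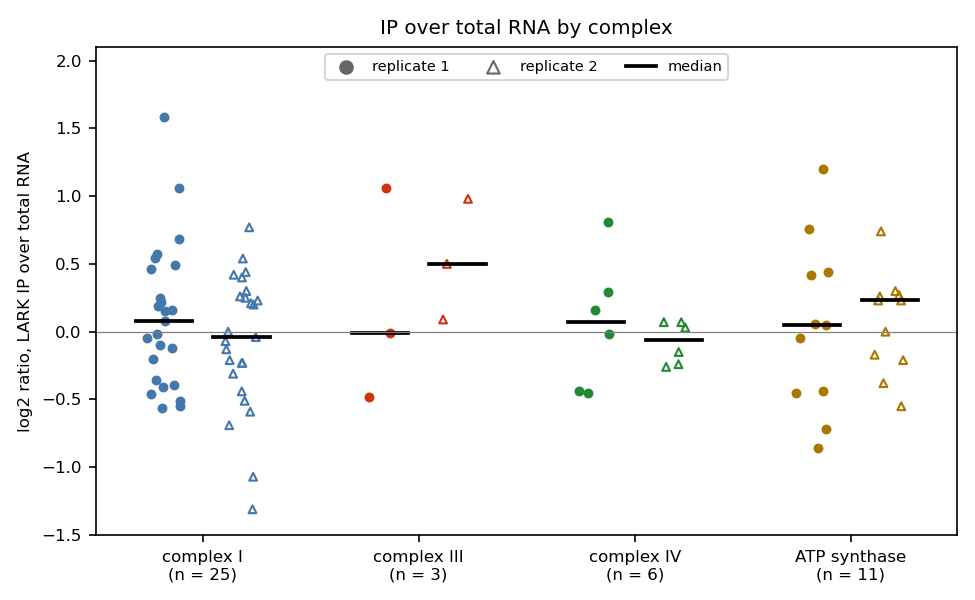
Log2 ratio of LARK IP to total RNA for the tested members of each complex, with replicate 1 as filled circles, replicate 2 as open triangles and black bars for the medians. The medians lie between -0.06 and 0.23 except for complex III in replicate 2, where 3 members give 0.50.

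The larger differences among the members ran between the lysates. Replicate 1 was higher than replicate 2 in LARK IP for 32 of 45 members and in total RNA for 30, and in both for 23, where 1699, 1701 and 1063 of the 3492 tested probe sets were. The difference between the lysates in LARK IP correlated with that in total RNA across the 45 members (Pearson's r = 0.47, Spearman's rho = 0.44), beside r = 0.36 and rho = 0.37 over all tested probe sets. These are descriptions across genes that share the same 4 arrays. By contrast, the ratios of IP to total RNA in the lysates correlated with r of 0.23 and rho of 0.16, beside 0.29 and 0.22 over all tested probe sets.

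ATP synthase had the largest such difference in total RNA, with a median of 0.90 on the log2 scale for replicate 1 minus replicate 2, and a median of 0.28 in LARK IP. The medians were 0.44 in total RNA and 0.76 in LARK IP for complex IV, and 0.19 in total RNA and 0.26 in LARK IP for complex I. Complex III had a median of 0.32 in total RNA and -0.16 in LARK IP, where 0 of its 3 members were higher in replicate 1. ATPsynD, a stalk subunit, gave 94.7 and 34.8 in LARK IP and 90.8 and 39.2 in total RNA. ND-42, an accessory subunit of complex I, gave 71.8 and 30.3 in LARK IP and 64.4 and 31.2 in total RNA. ND-15 gave 26.1 and 13 in LARK IP and 36.2 and 11.2 in total RNA. In each of these genes, which were picked after their values were seen, IP and total RNA of 1 lysate were closer to each other than the lysates were.

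The direction was not shared by every member. ATPsynbeta and ND-MWFE had the higher signals in replicate 2, in LARK IP and in total RNA alike. Of 9 muscle markers, 6 had a probe set, 2 of these were tested, and none was listed at 0. Their sum was higher in replicate 1, with 65.5 and 38.8 in LARK IP and 68.8 and 40.0 in total RNA. Most of that came from Mlc2, with 37.1 and 16.3 in LARK IP and 35.8 and 18.1 in total RNA, while up (7.1 and 5.5 in LARK IP, 6.1 and 5.5 in total RNA) differed less and Act88F (0.1 and 8.7 in LARK IP, 1.7 and 8.5 in total RNA) ran the other way. Photoreceptor markers, 6 of 8 with a probe set, 5 of these tested and none at 0, had the higher sum in replicate 2, with 102.2 and 170.3 in LARK IP and 128.3 and 248.9 in total RNA. The probe set for the 3' end of GAPDH gave 91.1 and 48.5 in LARK IP and 109.6 and 51.4 in total RNA, and that for 18S rRNA 419.7 and 1372.9 in LARK IP and 250.7 and 627.0 in total RNA. Their part in the difference between the lysates was not tested. The probe set for the 5' end of GAPDH gave 4.9 and 0.2 in LARK IP and 11.5 and 5.8 in total RNA. For eIF4a the 3' end gave 511.7 and 398.1 in LARK IP and 356.6 and 338.3 in total RNA. Its 5' end gave 8.1 and 7.1 in LARK IP and 9.6 and 9.4 in total RNA. In both genes the 5' signal was far below the 3' signal on every array, and lower in LARK IP. Its bearing on the ratios of IP to total RNA was not tested. The arrays of each replicate were hybridised on a day of their own, so lysate and day cannot be told apart.

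**Figure D4:**
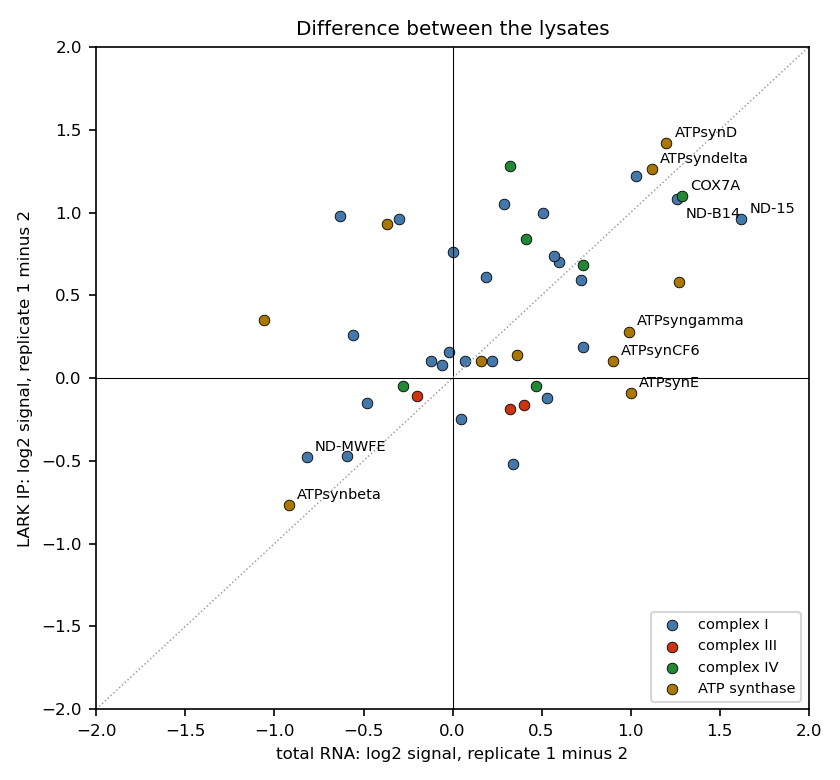
Difference in log2 signal between replicate 1 and replicate 2 in total RNA (horizontal) and in LARK IP (vertical) for the 45 tested members, coloured by complex; the dotted line marks equal differences. In 23 members replicate 1 was higher in both, among them ATPsynD, ATPsyndelta, COX7A, ND-B14 and ND-15.

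The paralogues were read separately from the main subunits. Of the 14, only ATPsynbetaL was above background on all 4 arrays, with 10.7 and 8.2 in LARK IP and 4.2 and 9.6 in total RNA (ratio 0.50 ± 1.0, adjusted p = 0.773 by limma). ND-B14.5AL, the remaining tested one beside ND-20L, had 6.9 and 3.1 in LARK IP and 4.5 and 7.4 in total RNA, a ratio of -0.27 ± 1.14 (adjusted p = 0.931). These ratios differed between the lysates by more than 1 on the log2 scale. COX7AL, COX6AL2, ATPsynCF6L and ATPsynepsilonL were under background on all 4 arrays, so their ratios carry no direction.

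ND-51L2, a duplicate of ND-51, had 4.7 and 6.9 in LARK IP and 0.7 and 0.8 in total RNA. Both IP arrays were above background and both total RNA arrays below it, so LARK IP was at least 1.63-fold higher against the lowest signal above background, 3.5. The gene did not pass the filter and was not tested. Its relative ND-51L1 had 2.7 and 5.5 in LARK IP and 5.4 and 8.2 in total RNA. The duplicates of ND-51 thus lay in opposite order between IP and total RNA, both near background.

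COX5BL had 5.9 and 2.4 in LARK IP and 0.4 and 1.2 in total RNA, with 1 of the IP arrays above background and neither total RNA array, so no fold is given. COX4L had 1.4 and 0.6 in LARK IP and 3.5 and 1.8 in total RNA, with 1 of 4 arrays above background. UQCR-14L, the duplicate of UQCR-14, had 1.0 and 3.7 in LARK IP and 3.9 and 0.3 in total RNA. Apart from the 5.9 of COX5BL, these signals lie under background or barely above it. In none of these genes was LARK IP or total RNA above background on both of its arrays, so no direction is read from them.

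**Figure D5:**
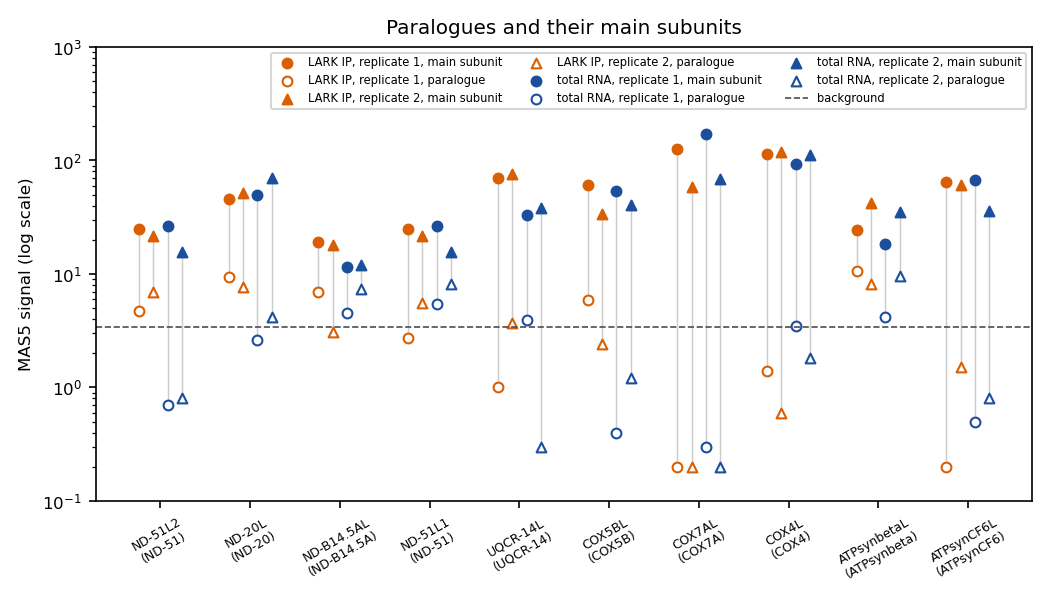
Signals (log axis, arbitrary units) of the 10 paralogues whose main subunit also had a probe set (open symbols) and of that main subunit, named in brackets (filled symbols); orange is LARK IP and blue total RNA, circles replicate 1 and triangles replicate 2, grey lines join symbols of the same array, and the dashed line is the background of 3.43. On every array the main subunit gives the higher signal.

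Among the main subunits that did not pass the filter, ND-B8 of complex I had 1.9 and 0.3 in LARK IP and 5.3 and 5.4 in total RNA. It was above background in both total RNA arrays and in neither IP array, at least 1.53-fold lower in LARK IP, and was not tested. ND-18, an accessory subunit of complex I, had 0.9 and 4.8 in LARK IP and 6.4 and 3.1 in total RNA, with replicate ratios of -2.08 and 0.52. COX7C was at 0.6 and 0.5 in LARK IP and 0.3 and 0.6 in total RNA, under background throughout, and no direction can be read for these last 2 genes.

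Some subunits whose symbols lack the prefixes were read from a list of their own, of which 9 genes had a probe set and 8 were tested. None of the 8 was called by limma, and their median log2 ratio was 0.00. The list was not complete. NdufA3, by its name a subunit of complex I, was tested but not on it, with ratios of 1.43 in replicate 1 and 0.20 in replicate 2. Cyt-c1, the subunit of complex III that hands electrons to cytochrome c, had 18.2 and 8.5 in LARK IP and 36.7 and 15.2 in total RNA, a ratio of -0.88 ± 0.14 (adjusted p = 0.259). The ratio was below 0 in 2 of 2 lysates, opposite to that of UQCR-14, and the difference was not tested. Of the other tested complex III subunits on that list, RFeSP had replicate ratios of 0.15 and 0.24, and ox of -0.20 and 0.30. cype, a subunit of complex IV, had 196.0 and 146.8 in LARK IP and 129.4 and 121.1 in total RNA, a ratio of 0.44 ± 0.23, without passing. blw, the alpha subunit of ATP synthase, had 52.2 and 19.1 in LARK IP and 66.3 and 21.7 in total RNA, a ratio of -0.26 ± 0.12.

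Complex II, succinate dehydrogenase, feeds electrons into the chain beside complex I and was measured by SdhB, SdhC and SdhD. SdhB, its iron-sulfur subunit, had 39.2 and 22.3 in LARK IP and 46.1 and 28.3 in total RNA, a ratio of -0.28 ± 0.07. None of the 3 was called, and their median ratio was -0.22. For the 13 subunits encoded in mitochondrial DNA, 0 probe sets were matched, so nuclear and mitochondrial subunits were not compared here.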

How the data were processed

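The authors hybridised LARK IP and total RNA to Affymetrix DrosGenome1 arrays and deposited 1 signal intensity per probe set and array, computed with MAS5 and scaled to a common target. Of 14010 probe sets, 44 controls were left out. The platform annotation gave 1 symbol for 12442 of the other 13966, several for 327 and none for 1197, and 12393 matched a RefSeq name (Release 6, used for names alone). Current RefSeq holds 80 genes with the 4 prefixes, 20 of which are not analysed here for want of a probe set with 1 symbol. Columns of other samples numbered 0. The deposited array report files were read for the scanning and hybridisation records alone.

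Ratios were taken on log2(signal + 0.8), which understates changes of dim probe sets; the pseudocount is the median, over arrays, of each array's 25th percentile. The 3492 probe sets in the top 25% of the mean of these values were fitted with limma 3.58.1 (R 4.3.3), with lmFit and eBayes with a variance trend, two-sided, Benjamini-Hochberg over all 3492 at 0.05, after the script was tested on simulated data. The replicate number entered as a block, because the series description states that IP and total RNA of a number share a lysate. The difference between the lysates correlated between IP and total RNA with r 0.36 over these probe sets. Background was the 95th percentile of 15 Bacillus control probe sets. With 2 arrays per group, the number of arrays limits the precision.

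The rule for naming members took any member called, and the 3 highest and 3 lowest ratios and the 2 brightest members of each complex. It also took members whose replicate ratios differed by more than 2, and paralogues with their main subunits. Other members were named outside the rule, such as ND-B8, ND-SGDH, COX7C, ATPsynD, ND-42, ND-15 and ND-B14. Members and gene lists were chosen with earlier results of these data known. Related lists, 13 with the cell type markers, are described by counts and medians alone. Alternatives varied the block, pseudocount, filter, normalization, variance trend, probe set per gene, set of members and the arrays left out. Promoter sequences were not analysed here.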

Additional observations from a re-analysis of the deposited data

How the results depend on the processing

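No member was called in either direction without the replicate block (0 higher and 0 lower, median ratio 0.01), where calls over all tested probe sets were 0 higher and 0 lower in place of 94 and 6. The pairing by lysate therefore bears on every adjusted p, and that of UQCR-14 was 0.95 without it. With 4 times the pseudocount, and with the filter on log2 signals without a pseudocount (chosen after seeing the data), 1 member was called higher, UQCR-14 in both. Calls over all probe sets numbered 129 higher and 16 lower with 4 times the pseudocount, 78 and 2 with none, 63 and 0 with the top 15%, 12 and 0 after quantile normalization and 1 and 0 without the variance trend. Quantile normalization also moved the median of all members to -0.12 that of complex IV to -0.16 and that of complex III to -0.09, against 0.25, with complex IV minus complex I at -0.05, complex III minus complex I at 0.02 and ATP synthase minus complex III at 0.08, against -0.14. It also turned the ratios of ATPsynC (-0.01), COX4 (-0.13), COX5A (-0.12) and UQCR-Q (-0.09). The median of all members was -0.01 with the top 15%, with the filter without a pseudocount, with members above background in both total RNA arrays and with paralogues left out (added after seeing the data), -0.02 with the mean of a gene's probe sets, which took ATP synthase to -0.05, and 0.02 with no filter. Complex IV minus complex I was 0.02 with the filter without a pseudocount and with members above background, and -0.03 with no filter. The cause was not tested.

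Leaving out each array in turn, which also removes the block, gave medians of -0.23 to 0.21 for all members, -0.20 to 0.20 for complex I (0.07 without total RNA replicate 1), -0.32 to 0.28 for complex IV and -0.27 to 0.23 for ATP synthase, and differences of -0.19 to 0.16 for complex IV minus complex I, -0.62 to 0.08 for ATP synthase minus complex III, -0.67 to 0.13 for complex IV minus complex III, -0.05 to 0.55 for complex III minus complex I, -0.07 to 0.11 for ATP synthase minus complex I and -0.05 to 0.12 for ATP synthase minus complex IV. Without LARK IP replicate 1 the median of all members was -0.23 and without LARK IP replicate 2 it was 0.21. Ratios that changed sign ran between -0.02 and 0.33 for ATPsynC, -0.10 and 0.80 for ATPsynCF6, -0.82 and 0.18 for ATPsynE, -0.11 and 0.80 for ATPsynbeta (-0.04 without LARK IP replicate 2), -0.03 and 1.02 for ATPsynbetaL, -0.26 and 1.0 for ATPsyndelta, -0.86 and 0.14 for ATPsyngamma, -0.36 and 0.37 for COX5A (-0.33 without LARK IP replicate 1), -0.47 and 0.37 for COX5B, -0.99 and 0.30 for COX7A, -0.31 and 0.97 for COX7B, -0.43 and 0.04 for COX8, -0.19 and 0.53 for ND-51, -0.76 and 0.22 for ND-B14.5AL (0.05 without total RNA replicate 2), -0.61 and 0.10 for ND-MNLL, -0.01 and 0.81 for ND-MWFE, and -0.40 and 0.01 for UQCR-6.4. In all, 467 of 546 values compared kept their direction and side of the threshold or stayed within the spread of the replicates. The promoter motifs planned were not run. Signals near background limit what can be said of the paralogues.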

Other observations

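No tested gene of the other mitochondrial lists was called by limma, and their mean log2 ratios lay between -1.03 and 0.90. sesB, the adenine nucleotide translocase that trades ATP for ADP across the inner membrane, had 755.5 and 757.5 in LARK IP and 588.6 and 753.3 in total RNA, with a log2 ratio of 0.18 ± 0.25. The list of carriers and pores had 7 tested genes, with a median ratio of 0.18. It also held the protein import genes Tim8 (0.26), Tim9a (0.36) and Tom20 (-0.29). porin, the outer membrane channel, had 161.0 and 65.8 in LARK IP and 117.4 and 65.4 in total RNA and so differed between the lysates, as most members did. Mpcp2, a phosphate carrier, had 50.0 and 26 in LARK IP and 66.2 and 35.1 in total RNA, a ratio of -0.41 ± 0.02.

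The list drawn up for assembly factors had 7 tested genes, with a median ratio of 0.31 and a range of -0.82 to 0.83. The median was 0.11 in replicate 1 and -0.06 in replicate 2. The list also held Taz (ratio 0.63) and fmt (0.83), whose part in assembly was not checked here, and both lay above the median. Cox10, which makes the haem of complex IV, had 44.9 and 58.1 in LARK IP and 76.0 and 60.5 in total RNA. The 4 tested genes that keep or regulate the mitochondrial genome had a median of 0.34, within a range of -1.03 to 0.90. Among them ewg, the fly relative of a vertebrate activator of respiratory genes, had 15.8 and 15.8 in LARK IP and 9.8 and 6.7 in total RNA (ratio 0.90 ± 0.35), and TFAM, which packs mitochondrial DNA, had 8.6 and 9.5 in LARK IP and 6.4 and 5.9 in total RNA (ratio 0.50 ± 0.17). Both were higher in LARK IP in 2 of 2 lysates and neither passed the test. Fat body markers summed to 25.4 and 24.1 in LARK IP and 31.0 and 51.1 in total RNA. Of these, 2 of 6 with a probe set were tested and many signals were under background, so no direction is read from that sum. Haemocyte markers (3 of 5 tested) summed to 30.1 and 28.2 in LARK IP and 45.1 and 25.6 in total RNA. Glial markers (4 of 6 tested) summed to 308.2 and 208.9 in LARK IP and 336.5 and 178.4 in total RNA.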
